A study of Homo sapiens with 4 samples.

Results

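The lysosome genes described here are 44 named members: soluble hydrolases other than cathepsins, membrane proteins, and the transcription factors of the TFEB family. They were taken by symbol from the 62069 Ensembl genes counted in each library, on the primary chromosomes of GRCh37. The counts come from RNA sequencing of KMS11, an established line of multiple myeloma, the plasma cell cancer, that carries the t(4;14) translocation. Of the 4 libraries, 2 came from cells infected with lentivirus for an shRNA labelled M2, whose genotype label reads NSD2 knockdown. The other 2 libraries came from cells infected with a control virus, with polybrene at 10 µg/mL in all 4, and RNA was collected 96 h after infection began. Nothing in the labels says that the 2 libraries of a group were separate cultures, so the p-values describe the spread between these libraries, which may be technical. Cells of a pool cannot be told apart in such bulk RNA: fewer cells carrying a transcript and less of it per cell give the same value.

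The lysosome is the acidic compartment in which glycans, lipids and proteins are taken apart by hydrolases. Most soluble hydrolases are tagged with mannose phosphate in the Golgi and carried by sorting receptors, while a proton pump, the V-ATPase, keeps the lumen acidic. TFEB, TFE3 and MITF are related transcription factors that move to the nucleus when the kinase mTORC1 is low and bind a palindromic E-box, called the CLEAR element, before many lysosomal genes. Plasma cells secrete large amounts of antibody and depend on protein and membrane turnover.

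The libraries held 46728940 to 55059566 counted fragments, and mitochondrial genes took 5.82% to 6.81% of them, the highest share in knockdown library 2. The part of that share in the results was not tested. NSD2, the histone methyltransferase that the hairpin was meant to lower, stood at 919 and 1156 CPM (fragment counts scaled to library size, with TMM factors) in the libraries labelled knockdown, against 1121 and 1471 CPM in control libraries. The groups overlapped, and NSD2 did not pass the test (log2 fold change -0.32, 95% interval -0.66 to 0.02, edgeR adjusted p = 0.244), so the first group is called by its label. Of 10 plasma cell markers, CD38 and SLAMF7 fell with edgeR and limma-voom, and DESeq2 called these and IRF4 lower. None of the 10 rose with any of these tools, and at an unadjusted p below 0.05 there were 1 higher and 3 lower, where 22.5% of all genes tested had such a p. The summed level of those 10 was 8530 and 9402 CPM in knockdown libraries and 9291 and 9334 CPM in control libraries. Of 12 monocyte and macrophage markers, MRC1 had no entry on the primary chromosomes, only ITGAM was high enough to test, and TYROBP and MARCO had 0 fragments in every library. The sum of that list was 1.72 and 1.93 CPM in knockdown libraries and 2.14 and 2.80 CPM in control libraries, most of it ITGAM.

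Because the TFEB family binds the CLEAR element, the 250 bases before each RefSeq gene start (GRCh38.p14) were searched on both strands for its palindrome, the hexamer CACGTG with GT before it and AC after it. Windows were found for 34 of the 44 members, 54 windows in all since a gene can have several starts, and 4 of the 34 (11.8%) held the palindrome, namely GALNS, PLBD2, GAA and MCOLN1. Of all 27305 genes with a window, 0.374% held it. Counted by window, it was in 4 of 54 (7.41%), against 0.308% of 35116. Since the element lies before many lysosomal genes, shares above those of all genes describe the list and not these libraries. No window was found for PSAP, LAPTM4B and MANBA, which also rose, so these were not searched. The same holds for ARSA, ASAH1, HEXA, NAGLU, SGSH, LAMP2 and ATP6V1H. The 4 windows follow, 5′ to 3′ on the strand of the gene, with the palindrome and any further CACGTG in capitals. They are shown because these members share the element while GALNS rose, PLBD2 fell and the other pair did not pass the test.
GALNS (chr16:88856948-88857197, minus strand): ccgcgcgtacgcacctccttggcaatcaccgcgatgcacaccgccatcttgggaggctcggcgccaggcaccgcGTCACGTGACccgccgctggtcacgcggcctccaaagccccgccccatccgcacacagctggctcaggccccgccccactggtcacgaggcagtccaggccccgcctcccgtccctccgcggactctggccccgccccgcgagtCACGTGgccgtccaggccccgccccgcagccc
PLBD2 (chr12:113358337-113358586, plus strand): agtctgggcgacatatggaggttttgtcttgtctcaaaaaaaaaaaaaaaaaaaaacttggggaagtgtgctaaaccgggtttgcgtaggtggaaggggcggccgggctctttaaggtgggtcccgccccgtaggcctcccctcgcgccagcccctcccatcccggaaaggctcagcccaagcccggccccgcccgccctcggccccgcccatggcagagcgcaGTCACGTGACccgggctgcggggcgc
GAA (chr17:80101331-80101580, plus strand): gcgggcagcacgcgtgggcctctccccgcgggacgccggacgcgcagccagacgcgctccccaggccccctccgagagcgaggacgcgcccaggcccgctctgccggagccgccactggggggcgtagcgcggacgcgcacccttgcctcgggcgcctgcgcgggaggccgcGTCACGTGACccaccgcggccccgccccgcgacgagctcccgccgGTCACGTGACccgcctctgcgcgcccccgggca
MCOLN1 (chr19:7522374-7522623, plus strand): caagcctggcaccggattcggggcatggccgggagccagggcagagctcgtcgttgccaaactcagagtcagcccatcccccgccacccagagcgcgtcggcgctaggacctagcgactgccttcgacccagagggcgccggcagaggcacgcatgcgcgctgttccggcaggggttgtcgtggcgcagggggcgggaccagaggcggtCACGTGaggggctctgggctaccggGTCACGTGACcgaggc
The palindrome began 176 bases before the start of GALNS, 26 before that of PLBD2, 78 and 33 before that of GAA and 16 before that of MCOLN1. The shorter hexamer CACGTG, which lies within the palindrome, stood in the windows of 10 of the 34 members (29.4%), against 7.73% of all genes, and in 10 of 54 windows (18.5%), against 6.34% of all windows. LAMP1 held 5 copies of it and CLCN7 2. The variant TCATGTGA, searched on both strands, was found for CD63, GRN and TPP1 (8.82% of the 34), against 1.06% of all genes. A match is a description of letters, not evidence of binding in these cells.

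Of the 44 members, 43 had enough fragments to be tested, and 5 rose and 3 fell in the libraries labelled knockdown (edgeR quasi-likelihood test, adjusted p below 0.05 over all genes). The risers were GALNS, PLA2G15, PSAP, LAPTM4B and MANBA, and those that fell were IDS, PLBD2 and SIAE. The 8 called members are 18.6% of those tested, where 5.93% of all 17172 genes tested were called. By direction, 11.6% of the members rose against 1.74% of all genes, and 6.98% fell against 4.19%. The members were chosen with earlier results of these data known, so these shares describe the list and do not set it apart. The lowest tested member, MITF, had at least 5.86 CPM in every library, so no member passed the filter through one group alone. CD68, a macrophage membrane protein of late endosomes, was the member left out, with 16 fragments over the 4 libraries.

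**Figure D1:**
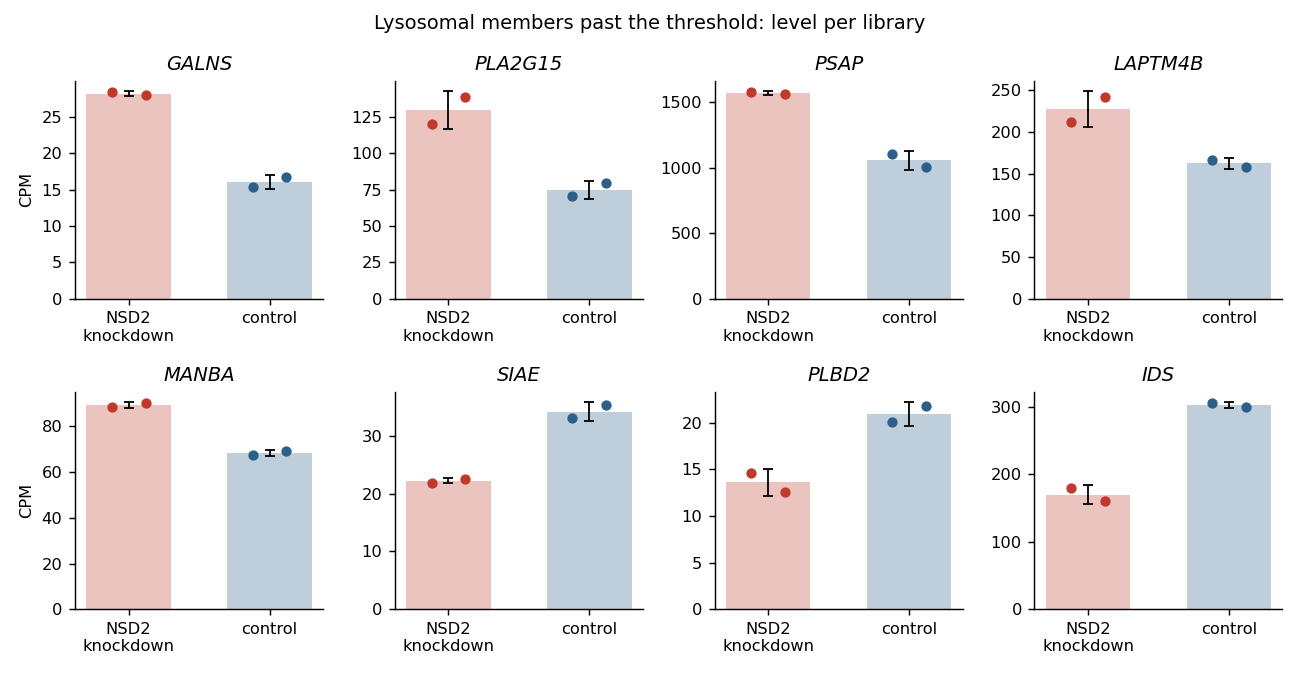
CPM of the 8 members past the threshold in each library (points, library 1 left and library 2 right), with the mean of each group (bars) and the SD over 2 libraries (error bars), knockdown left of control. The groups do not overlap in any of the 8, from PSAP at 1573 against 1057 CPM down to PLBD2 at 13.6 against 20.9 CPM. The 8 were picked by their p-values, and 53.2% of all genes tested do not overlap either.

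Levels per transcript length spread widely. In FPKM (CPM per kilobase of exon), PSAP was first at 487.8 ± 3.72 in knockdown libraries and 327.8 ± 21.6 in control libraries (SD, n = 2 each). After it came ATP6AP1, an accessory subunit of the proton pump, with 130.8 ± 0.0481 FPKM in knockdown and 120.1 ± 5.25 FPKM in control libraries, and CD63, a tetraspanin of late endosomes, with 131 ± 11.2 FPKM in knockdown and 119.7 ± 1.498 FPKM in control libraries. ATP6AP1 and CD63 differed from each other by less than the spread between libraries. The lowest tested member was MITF, at 0.865 ± 0.0763 FPKM in knockdown and 1.13 ± 0.103 FPKM in control libraries. The median member stood at 19.9 FPKM over the 4 libraries, where the median of all genes tested was 3.29 FPKM, and 39 of the 43 lay above that median. The called members came from the whole range: GALNS and SIAE were among the 5 lowest and PSAP was the highest.

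**Figure D2:**
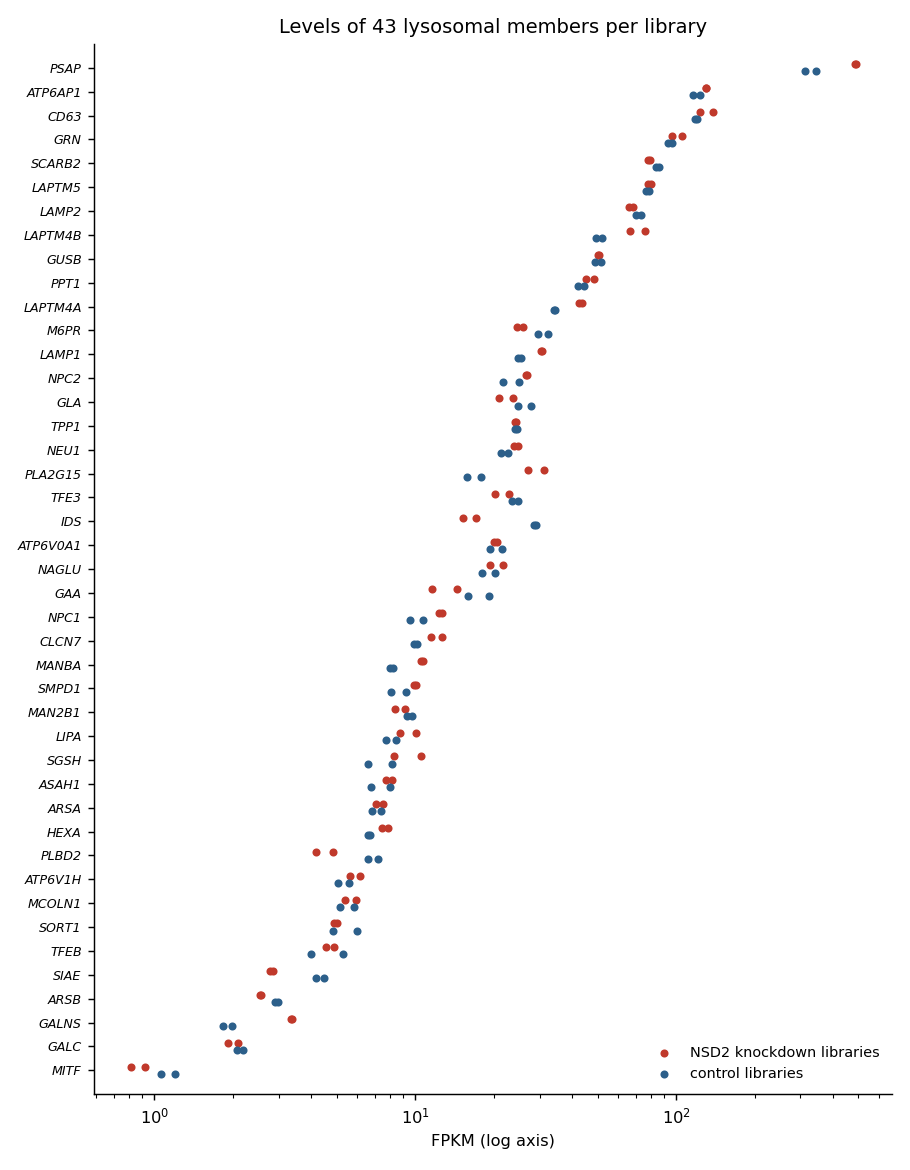
FPKM of the 43 tested members in each of the 4 libraries on a log axis, ordered by their mean, with knockdown points above control points. PSAP stands apart at the top, MITF at the bottom, and for most members the groups lie close together.

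Sphingolipids are degraded by a chain of hydrolases that need small activator proteins. Of the 7 members of this group, 1 rose and 0 fell with edgeR, DESeq2 or limma-voom. With edgeR, 1.74% of all genes tested rose and 4.19% fell. At an unadjusted p below 0.05, 2 of the 7 were higher, PSAP and HEXA, and 1 was lower, GLA. Of all genes, 9.46% were higher and 13.1% lower at that p. PSAP encodes prosaposin, the precursor of the saposins that present sphingolipids to these enzymes (ENSG00000197746, chromosome 10, 73576055 to 73611126, GRCh37). It had 1581 and 1564 CPM in knockdown libraries, against 1106 and 1008 CPM in control libraries. Both knockdown values lay above both control values, as in 27.0% of all genes tested. The rise was 1.49-fold (log2 fold change 0.57 with a 95% interval of 0.35 to 0.80, SE 0.101, adjusted p = 0.0108). The enzymes that saposins serve did not pass the test. HEXA, the alpha chain of hexosaminidase, had 72.9 and 76.8 CPM in knockdown libraries, against 65.3 and 64.4 CPM in control libraries (log2 fold change 0.21, adjusted p = 0.213). Sphingomyelinase SMPD1 had a log2 fold change of 0.21, acid ceramidase ASAH1 0.10, arylsulfatase ARSA 0.04, galactocerebrosidase GALC -0.09 and alpha-galactosidase GLA -0.24, with adjusted p from 0.213 to 0.860 over these 6 enzymes. The summed CPM of the 44 members was 6831 and 6944 in knockdown libraries and 6340 and 6135 in control libraries. Without PSAP it was 5249 and 5380 in knockdown libraries and 5234 and 5128 in control libraries.

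Enzymes of glycogen, glycosaminoglycan and glycoprotein breakdown moved in both directions, with 2 of 11 members higher and 2 lower. Of all genes tested, 1.74% rose and 4.19% fell. GALNS, a sulfatase that acts on keratan sulfate, had 28.4 and 28.0 CPM in knockdown libraries, against 15.4 and 16.7 CPM in control libraries (ENSG00000141012, chromosome 16, 88880142 to 88923378). The groups lay far apart for their spread, with a 1.76-fold rise (adjusted p = 0.00302), or 0.81 on the log2 scale (SE 0.108, 95% interval 0.57 to 1.06). IDS, the iduronate sulfatase of dermatan and heparan sulfate breakdown, had 180 and 160 CPM in knockdown libraries, against 306 and 299 CPM in control libraries (ENSG00000010404, chromosome X, 148558521 to 148615470). It fell 1.78-fold (log2 fold change -0.83 with a 95% interval of -1.05 to -0.61, SE 0.0989, adjusted p = 0.00187). So of the 2 sulfatases called here, one rose and the other fell by like factors. The other sulfatases and heparan sulfate enzymes of the list did not pass. ARSB had a log2 fold change of -0.21 (adjusted p = 0.293) and NAGLU, an acetylglucosaminidase, 0.10 (adjusted p = 0.615). SGSH, a heparan sulfamidase, had 55.6 and 70.9 CPM in knockdown libraries, against 44.4 and 54.7 CPM in control libraries (adjusted p = 0.168). Library 2 exceeded library 1 within each group for SGSH, and it passed without control library 2 (0.51 on the log2 scale, adjusted p = 0.0137) or without knockdown library 1 (0.52, adjusted p = 0.0117). Without control library 1 the value for SGSH was 0.22 (adjusted p = 0.299), without knockdown library 2 it was 0.16 (adjusted p = 0.798), and with no filter on low counts SGSH passed (adjusted p = 0.0293). Beta-glucuronidase GUSB, with the highest FPKM of this group, had 202 and 201 CPM in knockdown libraries, against 207 and 195 CPM in control libraries. Its 95% interval, from the spread between these libraries, ran from -0.20 to 0.21 on the log2 scale.

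Among the glycoprotein enzymes, MANBA, a beta-mannosidase, had 88.3 and 90.1 CPM in knockdown libraries, against 67.3 and 69.1 CPM in control libraries (chromosome 4, 103552660 to 103682151). The rise was 1.31-fold, the smallest of the 5 (log2 fold change 0.39, SE 0.0892, adjusted p = 0.0334). Its call was lost when knockdown library 1 was left out (0.41 on the log2 scale, adjusted p = 0.0801) and when knockdown library 2 was (0.37, adjusted p = 0.198). SIAE removes acetyl groups from sialic acids, and it had 21.9 and 22.5 CPM in knockdown libraries, against 33.0 and 35.3 CPM in control libraries (chromosome 11, 124503009 to 124565603). It fell 1.54-fold (log2 fold change -0.62, SE 0.102, adjusted p = 0.0081). Sialidase NEU1, which cleaves sialic acids off glycans, had a log2 fold change of 0.14 (adjusted p = 0.401), and alpha-mannosidase MAN2B1 -0.13 (adjusted p = 0.471). GAA, the acid alpha-glucosidase that degrades glycogen, had 74.4 and 59.8 CPM in knockdown libraries, against 99.2 and 82.1 CPM in control libraries. The groups did not overlap, and 26.2% of all genes tested lay lower in this way. The log2 fold change of -0.43 (95% interval -0.72 to -0.14) did not pass (adjusted p = 0.0844). GAA passed with DESeq2 (adjusted p = 0.0366), where 4 members fell and 6.35% of all genes were called. It also passed with GC content and exonic length as model terms (adjusted p = 0.0457), where 7 members rose, 4 fell and 6.37% of all genes were called. GAA depended on the libraries used. It passed without control library 2 (-0.57 on the log2 scale, adjusted p = 0.00268). It also did when knockdown library 1 was left out (-0.60, adjusted p = 0.00446). It did not pass without control library 1 (-0.29, adjusted p = 0.128) or without knockdown library 2 (-0.29, adjusted p = 0.436). With no filter on low counts it passed (adjusted p = 0.00212).

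**Figure D3:**
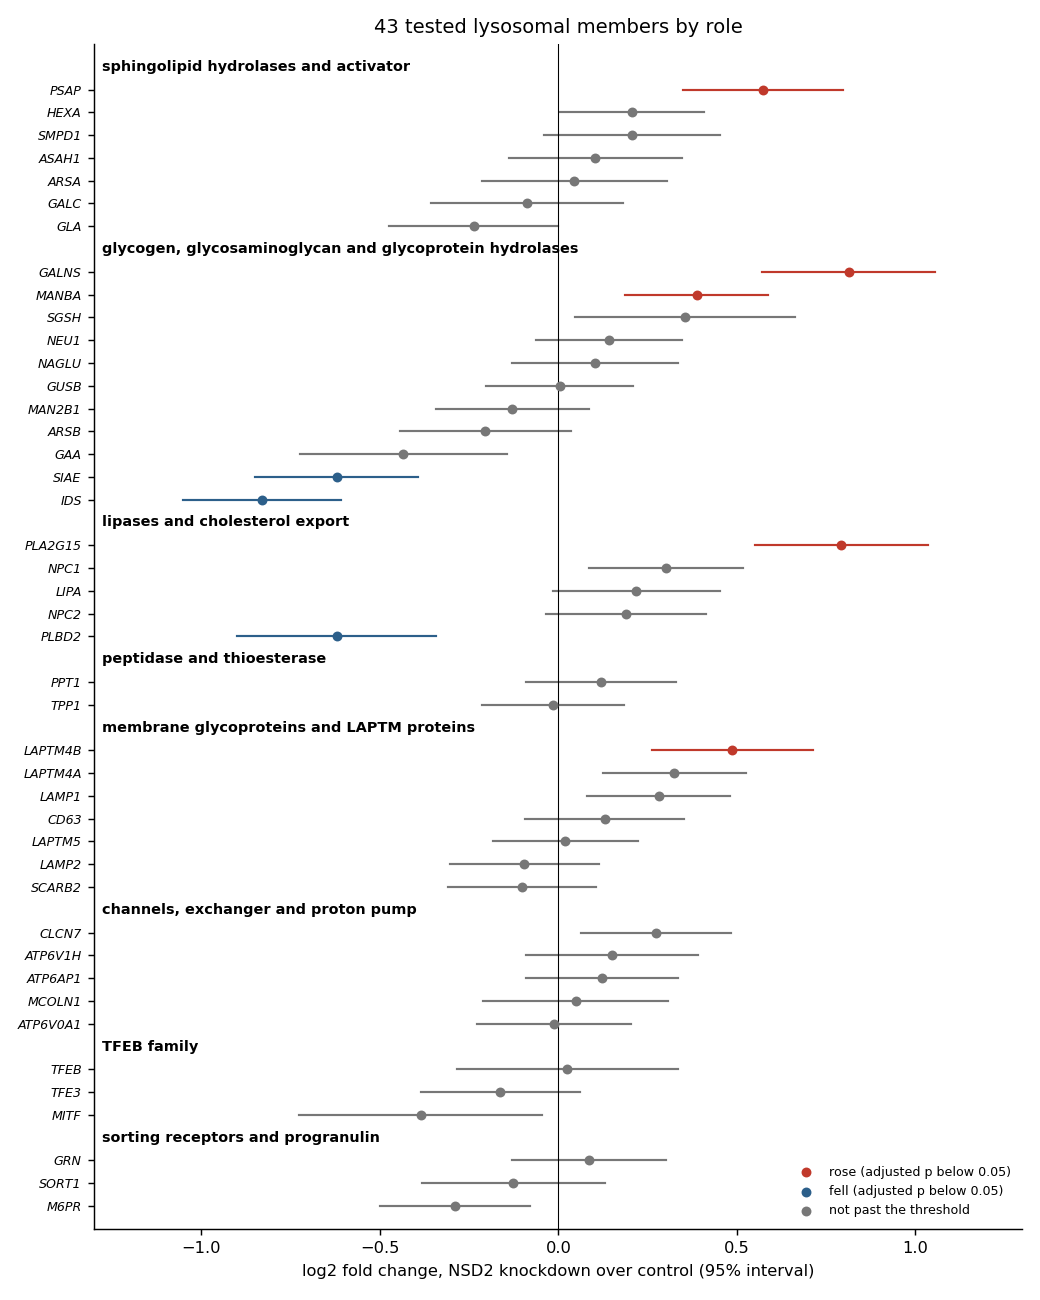
Log2 fold change of each tested member, knockdown over control, with its 95% interval from the edgeR model, grouped by role; red members rose, blue members fell and grey members did not pass the threshold. The 8 called members lie in 4 of the 8 role groups, and both directions occur among the glycan hydrolases and among the lipases.

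Of the 5 genes of lipid breakdown and cholesterol export, 1 rose and 1 fell, where 1.74% of all genes tested rose and 4.19% fell. PLA2G15, a lysosomal phospholipase, had 121 and 139 CPM in knockdown libraries, against 70.4 and 79.4 CPM in control libraries (ENSG00000103066, chromosome 16, 68279207 to 68294961). It rose 1.73-fold (log2 fold change 0.79 with a 95% interval of 0.55 to 1.03, SE 0.108, adjusted p = 0.00348). PLBD2, a phospholipase B-like protein of the lumen, had 14.6 and 12.6 CPM in knockdown libraries, against 20.02 and 21.8 CPM in control libraries (ENSG00000151176, chromosome 12, 113796371 to 113827203). It fell 1.54-fold (log2 fold change -0.62, SE 0.124, adjusted p = 0.0187), and without knockdown library 2 the log2 fold change of -0.52 did not pass (adjusted p = 0.0878). The sterol pathway gave smaller differences, all with higher knockdown values. NPC1, the membrane protein that exports cholesterol, had 120 and 124 CPM in knockdown libraries, against 93.5 and 105 CPM in control libraries (log2 fold change 0.30, adjusted p = 0.103). It passed with the GC and length terms (log2 fold change 0.44, adjusted p = 0.0183) and without control library 2 (0.38, adjusted p = 0.0413), while with each of the other libraries left out it ran from 0.23 to 0.33 and did not pass. Its luminal partner NPC2 had 73.0 and 73.7 CPM in knockdown libraries, against 68.8 and 59.8 CPM in control libraries (adjusted p = 0.297). For LIPA, the acid lipase that frees cholesterol from its esters, the log2 fold change was 0.22 (adjusted p = 0.254).

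The peptidase TPP1 and the thioesterase PPT1 did not pass with edgeR, DESeq2 or limma-voom, nor at an unadjusted p below 0.05. TPP1, which trims tripeptides from protein ends, had 118 and 119 CPM in knockdown libraries, against 121 and 118 CPM in control libraries, and its 95% interval ran from -0.21 to 0.18. PPT1, which removes palmitate from proteins, had 149 and 160 CPM in knockdown libraries, against 138 and 146 CPM in control libraries (adjusted p = 0.501).

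In the membrane group 1 of 7 tested members rose and 0 fell with edgeR, DESeq2 or limma-voom, with 0 lower and 3 higher at an unadjusted p below 0.05. Of all genes tested, 1.74% rose and 4.19% fell with edgeR, and 9.46% were higher and 13.1% lower at that unadjusted p. LAPTM4B, a membrane-spanning protein of late endosomes and lysosomes, had 212 and 242 CPM in knockdown libraries, against 167 and 157 CPM in control libraries (ENSG00000104341, chromosome 8, 98787285 to 98865241). It rose by 40.2% (log2 fold change 0.49 with a 95% interval of 0.26 to 0.71, SE 0.101, adjusted p = 0.0223). Without knockdown library 2 its log2 fold change was 0.38 and did not pass (adjusted p = 0.16). Its relative LAPTM4A had 82.4 and 84.8 CPM in knockdown libraries, against 67.1 and 66.4 CPM in control libraries, a log2 fold change of 0.32 that missed the threshold (adjusted p = 0.0649) and passed with no filter on low counts (adjusted p = 0.0479). LAPTM5, the family member of blood cells, had 255 and 262 CPM in knockdown libraries, against 258 and 252 CPM in control libraries, with overlapping groups and a 95% interval of -0.18 to 0.22. The LAMP proteins coat the inner face of the membrane. LAMP1 had 176 and 174 CPM in knockdown libraries, against 146 and 142 CPM in control libraries (log2 fold change 0.28, adjusted p = 0.101), while for LAMP2 the log2 fold change was -0.10 (adjusted p = 0.599). LAMP1 passed with the GC and length terms (log2 fold change 0.34, adjusted p = 0.042). LAMP1 and LAPTM4A also passed with a replicate block. SCARB2, the receptor that carries glucocerebrosidase, and CD63 had log2 fold changes of -0.10 and 0.13 (adjusted p = 0.562 and 0.488).

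Of the 5 genes for channels, ion exchange and the proton pump, 0 passed at an adjusted p below 0.05 in edgeR. At an unadjusted p below 0.05 there was 1, CLCN7, the chloride-proton exchanger, with 93.9 and 103 CPM in knockdown libraries, against 82.3 and 80.5 CPM in control libraries (log2 fold change 0.27, adjusted p = 0.124). Such a p was found for 22.5% of all genes tested, and 9.46% were higher with it. DESeq2 and limma-voom also called 0 of the 5, while CLCN7 passed in edgeR with a replicate block (adjusted p = 0.0278). ATP6AP1 had 638.5 and 638.9 CPM in knockdown libraries, against 605 and 569 CPM in control libraries (adjusted p = 0.493). The calcium channel gene MCOLN1, whose promoter is shown above, had 21.3 and 23.5 CPM in knockdown libraries, against 20.3 and 23.03 CPM in control libraries. Its 95% interval ran from -0.21 to 0.31. ATP6V0A1 and ATP6V1H, subunits of the membrane and the cytosolic part of the pump, had log2 fold changes of -0.01 and 0.15.

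With group as the only term, the transcription factors did not pass with edgeR, DESeq2 or limma-voom. At an unadjusted p below 0.05, 1 of the 3, MITF, was lower, as were 13.1% of all genes tested. MITF passed as lower with a replicate block, and both MITF and TFE3 did with GC and length terms added to the block. TFEB had 28.0 and 26.2 CPM in knockdown libraries, against 30.4 and 22.8 CPM in control libraries, a log2 fold change of 0.03 (95% interval -0.28 to 0.33, adjusted p = 0.941) that turned negative without control library 2 (-0.17) and without knockdown library 1 (-0.02). TFE3 had 98.2 and 86.4 CPM in knockdown libraries, against 106 and 101 CPM in control libraries (log2 fold change -0.16, adjusted p = 0.372). MITF had 6.64 and 5.86 CPM in knockdown libraries, against 8.68 and 7.63 CPM in control libraries (log2 fold change -0.39, 95% interval -0.73 to -0.05, adjusted p = 0.174). For TFE3 and MITF both knockdown values lay under both control values, as in 26.2% of all genes tested, and for TFEB the groups overlapped. These are transcript levels, and the activity of the family depends on where the proteins are in the cell, which was not measured.

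With group as the only term and all 4 libraries, the sorting genes gave no call with edgeR, DESeq2 or limma-voom. At an unadjusted p below 0.05, 1 of the 3, M6PR, was lower, as were 13.1% of all genes tested. With a replicate block M6PR passed. M6PR, a mannose phosphate receptor, had 93.1 and 97.7 CPM in knockdown libraries, against 112 and 122 CPM in control libraries (log2 fold change -0.29, adjusted p = 0.108), and it passed without control library 1 (-0.35, adjusted p = 0.0413) but not with any of the other libraries left out (-0.33 to -0.23). SORT1, the sorting receptor sortilin, had 43.99 and 42.9 CPM in knockdown libraries, against 42.5 and 52.5 CPM in control libraries, with overlapping groups. GRN encodes progranulin, which sortilin carries to the lysosome, and had 340 and 370 CPM in knockdown libraries, against 340 and 329 CPM in control libraries (adjusted p = 0.649).

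Over the whole list, 27 of the 43 tested members had a positive and 16 a negative log2 fold change, with a median of 0.09, where the median of all genes tested was -0.002. The knockdown and control libraries did not overlap in 31 members (19 higher and 12 lower), or 72.1% of them, against 53.2% of all genes tested. An unadjusted p below 0.05 was found for 18 of the 43 members (41.9%), the 8 called ones included, against 22.5% of all genes tested. By direction, 25.6% of the members were higher, against 9.46% of all genes, and 16.3% lower, against 13.1%. For 32 of the 35 uncalled members the whole 95% interval lay within 1.5-fold in either direction, the exceptions being GAA, MITF and SGSH. These intervals rest on the spread between 2 libraries per group, which may be technical, so they do not bound the difference between conditions. For GUSB the standard error, derived from the edgeR test statistic, was 0.0915. The authors' deposited table has 0.173, from DESeq2, which is not the same measure.

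The counting ignored strand, and 6 of the 8 called members overlap the span of another tested gene. GALNS overlaps TRAPPC2L, a gene of vesicle transport on the other strand, which itself rose (52.2 ± 1.86 CPM in knockdown and 39.5 ± 0.0184 CPM in control libraries, SD, n = 2 each, log2 fold change 0.40, adjusted p = 0.0333). The overlapping neighbours of SIAE (SPA17 and TBRG1) and of PLBD2 (SLC8B1) did not pass, with log2 fold changes of -0.28, -0.09 and -0.25. Those of IDS are at most 2.97 CPM on average and include IDSP1, a pseudogene copy of part of IDS, so some fragments may be shared. PLA2G15 and MANBA overlap genes of at most 1.49 CPM. PSAP and LAPTM4B overlap none.

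The authors' deposited table, from a DESeq2 model whose header names M2 over LUC, has 2 members that pass upward at an adjusted p below 0.05, GALNS (log2 fold change 0.83) and PLA2G15 (0.81), and 2 downward, IDS (-0.81) and PLBD2 (-0.60). PSAP has a log2 fold change of 0.58 in the authors' deposited table with an adjusted p of 0.237. In the authors' deposited table LAPTM4B has 0.50 (adjusted p = 0.559), MANBA 0.40 (adjusted p = 0.697) and SIAE -0.60 (adjusted p = 0.151). The standard error for PSAP is 0.223 in the authors' deposited table, against 0.101 in the edgeR fit to the 4 libraries. The edgeR value was derived from the test statistic, so the 2 are not the same measure.

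The other genes of the pathway were counted from 7 lists of 139 genes, of which 134 were tested, 8 rose and 2 fell (7.46% called, against 5.93% of all genes). Of these 10 calls, 5 were in the list of cathepsins and legumain, the lysosomal proteases, where 3 of 13 tested genes rose and 2 fell. CTSB had 1556 and 2209 CPM in knockdown libraries, against 555 and 627 CPM in control libraries (log2 fold change 1.67, adjusted p = 0.00063), and CTSC and CTSK rose 1.33-fold and 1.37-fold. CTSV fell 2.38-fold, and CTSH had 1.18 and 1.11 CPM in knockdown libraries, against 2.39 and 2.04 CPM in control libraries (adjusted p = 0.0355). The calls of CTSB and CTSV held in all 13 alternatives, CTSC lost its call in 1 of them, without knockdown library 2, and CTSK and CTSH lost theirs in 5 each. CTSK was not called without control library 2 or without either knockdown library, and CTSH not without control library 1 or without either knockdown library. DESeq2 called 5 genes of this list higher, with CTSA and legumain (LGMN) added, and 1 lower, CTSV.

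Outside that list 5 of 121 tested genes rose with edgeR, or 4.13%, against 1.74% of all genes, and 0 fell, against 4.19% of all genes. DESeq2 called 6 higher and 0 lower there, and limma-voom 5 and 0. At an unadjusted p below 0.05 there were 20 higher and 8 lower, or 23.1% in all, against 22.5% of all genes. By direction, 16.5% were higher, against 9.46% of all genes, and 6.61% lower, against 13.1%. IDUA, the iduronidase that acts next to IDS in glycosaminoglycan breakdown, had 5.17 and 5.62 CPM in knockdown libraries, against 3.52 and 3.10 CPM in control libraries (log2 fold change 0.70, adjusted p = 0.0411). ABCA2, a lipid transporter of late endosomes, rose 3.85-fold (28.9 and 29.4 CPM in knockdown libraries, against 6.41 and 8.76 CPM in control libraries). OSTM1, the partner chain of CLCN7, rose 1.32-fold (adjusted p = 0.0439), NAGPA, which finishes the mannose phosphate tag, 1.43-fold (adjusted p = 0.0404), and LAMTOR1, which anchors the Ragulator complex of mTORC1 signalling to the lysosome, 1.31-fold (adjusted p = 0.0396). OSTM1, NAGPA, LAMTOR1 and IDUA were not called with library-size scaling, where 3 of the 134 genes rose, nor were they without knockdown library 2. Without knockdown library 1, OSTM1 and LAMTOR1 were not called, nor was OSTM1 without control library 1 or IDUA without control library 2. A filter of 1 CPM in 2 libraries also removed the calls of OSTM1, NAGPA and IDUA, and the GC and length terms removed that of IDUA.

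No other gene passed in these lists: 0 of 18 further V-ATPase subunits and 0 of 26 tested autophagy genes were called by edgeR. DESeq2 called 1 and 0 of them, limma-voom none, and at an unadjusted p below 0.05 there were 3 higher and 1 lower V-ATPase subunits and 5 higher and 1 lower autophagy genes. These are 22.2% and 23.1% of the genes tested in the lists, against 22.5% of all genes. The higher shares were 16.7% and 19.2%, against 9.46% of all genes, and the lower ones 5.56% and 3.85%, against 13.1%. The medians of the V-ATPase and autophagy lists were log2 fold changes of 0.09 and 0.07, against 0.09 for the members. The median was 0.35 for cathepsins and legumain, -0.02 for further hydrolases and 0.14 for the mTORC1, Ragulator and folliculin genes.

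**Figure D4:**
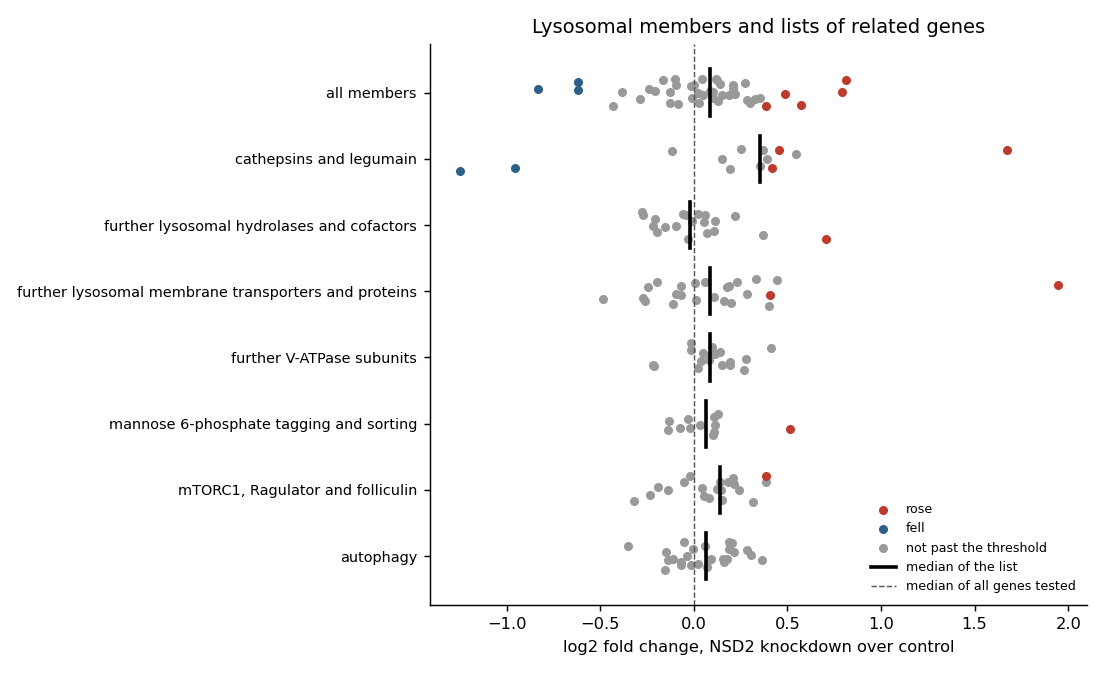
Log2 fold change of every tested gene in the 44-member list and in 7 lists of related genes, knockdown over control, with list medians as black bars, and the median of all genes as a dashed line. Called genes are scattered at both ends for the members and for the cathepsin and legumain list, and the V-ATPase and autophagy lists hold none.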

How the data were processed

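RNA of 4 KMS11 libraries was sequenced, 2 labelled NSD2 knockdown and 2 control. The deposited files give raw counts of fragments for each Ensembl gene. Per the submitters' processing notes, reads were trimmed with Trim Galore 0.3.7, aligned to GRCh37 with STAR 2.5.3, and assigned to genes by featureCounts (Subread 1.4.6); Picard is also named. Per the file headers, strand was ignored and the alignments are named for removed duplicates, which can compress high levels. The authors' deposited DESeq2 table gave symbols, exonic lengths, log2 fold changes with standard errors and adjusted p-values; its 4 count columns were not used.

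From the counts, edgeR 4.0.16 in R 4.3.3 was fitted over 17172 genes with TMM scaling, its default filter, group as the only term and Benjamini and Hochberg adjustment. Values are CPM or FPKM on TMM-scaled libraries. The procedure was also run on simulated data, with libraries drawn independently and no effect of library number. That run therefore does not bear on the choice of group as the only term. Alternatives were RLE and library-size scaling, no filter, a filter of 1 CPM in 2 libraries, DESeq2 1.42.0, limma-voom (limma 3.58.1), a replicate block, splines of 5 degrees of freedom for GC content (GENCODE 29 transcripts) and exonic length, and each library left out. The members, the lists and the rule for naming genes (all members, and up to 3 risers and 3 fallers per other list) were chosen with earlier results of these data known. Promoter sequences are from RefSeq, GRCh38.p14, and were not compared with GRCh37 coordinates. Figures used matplotlib 3.10.9.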

Additional observations from a re-analysis of the deposited data

How the results depend on the processing

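GALNS, PLA2G15, PSAP, IDS and SIAE kept their direction and their call under all 13 alternatives run. The counts of members that rose and fell, 5 and 3, were the same with RLE and library-size scaling, the 1 CPM filter and limma-voom. They were 10 and 7 with a replicate block, 12 and 8 with that block plus GC content and length terms, 7 and 4 with those terms alone or with no filter, and 3 to 7 and 2 to 4 when 1 library was left out. The lowest values were those without knockdown library 2. With the replicate block 39.5% of members were called, against 19.3% of all genes, and with the block plus GC and length terms 46.5%, against 26.4%. The members gained with the block were CLCN7, GAA, GLA, LAMP1, LAPTM4A, M6PR, MITF, NPC1 and SGSH. With the GC and length terms added to it, HEXA, LIPA and TFE3 were gained too. No label ties libraries of equal number together, and with 2 numbers the correlation of 0.236 between the deviations of same-numbered libraries does not settle it. The second principal component of log2 CPM (22.7% of the variance) set number 1 apart from number 2 in both groups. Its scores were 20.5 and -20.4 in control libraries 1 and 2, and 14.5 and -14.6 in knockdown libraries 1 and 2. Whether a shared batch lies behind this was not tested. Of all genes tested, 299 rose and 719 fell. This became 658 and 1490 with no filter, 1327 and 1992 with the replicate block, 2158 and 2367 with the block plus GC and length terms, and 173 to 682 and 649 to 1342 with 1 library left out. Of the other lysosomal genes, 8 rose and 2 fell. The rises were 3 with library-size scaling, 4 with the 1 CPM filter, 16 with no filter, 24 with the replicate block, 39 with the block plus GC and length terms, and 3 to 14 with 1 library left out. The falls were 1 with DESeq2 and with GC and length terms, 7 with the replicate block, 13 with the block plus those terms, and 1 to 5 with 1 library left out.

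Only uncalled members reversed sign. With GC and length terms, log2 fold changes became -0.12 for ARSA, 0.15 for ATP6V0A1, -0.017 for MCOLN1, -0.024 for NAGLU and 0.018 for TPP1, and with the replicate block as well -0.12, 0.15, -0.015, -0.026 and 0.018. GUSB became -0.015 with library-size scaling and -0.0073 with the 1 CPM filter. With 1 library left out, values ran from -0.014 to 0.10 for ARSA, -0.016 to 0.23 for ASAH1, -0.081 to 0.059 for ATP6V0A1, -0.045 to 0.051 for GUSB, -0.0069 to 0.045 for LAPTM5, -0.036 to 0.14 for MCOLN1, -0.27 to 0.028 for SORT1, -0.17 to 0.25 for TFEB and -0.035 to 0.0028 for TPP1. The cause of these changes was not tested. A fit with 1 library in a group assumes that it varies like the others.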
